A study of Mus musculus with 6 samples.

Results

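Nodal and Lefty signalling was followed through 9 genes in mouse embryonic stem cells: the ligand genes Nodal and Gdf3, the receptor gene Acvr2b, the co-receptor gene Tdgf1, the effector gene Smad2 and the inhibitor genes Lefty1, Lefty2, Cer1 and Smad7. Every probe annotated with one of these symbols was taken, which gave 11 of the 45281 probes on the arrays and 9 of 19053 named genes. Nodal and Cer1 had 2 probes each and the other 7 genes had 1. None (0) came in through an older alias alone. The cells were E14 embryonic stem cells of strain 129/Ola, measured on 6 Illumina bead arrays. In Δ3/Δ3 cells both alleles of Lsd1 (current symbol Kdm1a), which encodes a histone H3 lysine 4 demethylase, carry a deletion of exon 3. In Lox/Δ3 cells 1 allele carries that deletion and the other has exon 3 between loxP sites, so the controls share a deleted allele with the mutant cells. Each genotype had 3 arrays. The labels name no clone, feeder layer or culture medium, and where replicates do not come from separate clones the p-values measure only the spread between these samples.

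Nodal is a secreted ligand of the TGF-β family. It binds type I and type II activin receptors together with the co-receptor encoded by Tdgf1 (Cripto), and the receptors phosphorylate SMAD2 and SMAD3, which enter the nucleus with SMAD4 and bind DNA with partners such as FOXH1. Lefty1 and Lefty2 are among the direct targets of this signal and encode secreted antagonists of it, which makes a negative feedback loop. In mouse embryonic stem cells the pathway is active in culture, and in the embryo it patterns the epiblast and induces the primitive streak and endoderm.

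Promoter windows of 3 of the genes are shown because they stand for the states found on the arrays: the ligand and its co-receptor were detected on all 6 arrays, and Cer1 was not detected on 5 or more of them. The RefSeq promoter table of build GRCm38.p6 held 4 of the 9 genes, with windows from 250 bases before to 50 bases after the start of the gene, printed 5′ to 3′ on the strand of the gene. Capitals mark matches to AATNNACA, a FOXH1-type motif of 8 letters, and to CAGAC, the SMAD box of 5 letters, each searched on both strands. The Nodal window is chr10:61417722-61418021 on the plus strand, the Tdgf1 window chr9:110946109-110946408 on the minus strand and the Cer1 window chr4:82885102-82885401 on the minus strand.
Nodal: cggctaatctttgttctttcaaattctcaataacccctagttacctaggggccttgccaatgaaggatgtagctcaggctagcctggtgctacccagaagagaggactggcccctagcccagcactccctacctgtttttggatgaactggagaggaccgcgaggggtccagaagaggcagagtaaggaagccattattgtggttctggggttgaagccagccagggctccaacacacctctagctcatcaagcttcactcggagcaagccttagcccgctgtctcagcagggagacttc
Tdgf1: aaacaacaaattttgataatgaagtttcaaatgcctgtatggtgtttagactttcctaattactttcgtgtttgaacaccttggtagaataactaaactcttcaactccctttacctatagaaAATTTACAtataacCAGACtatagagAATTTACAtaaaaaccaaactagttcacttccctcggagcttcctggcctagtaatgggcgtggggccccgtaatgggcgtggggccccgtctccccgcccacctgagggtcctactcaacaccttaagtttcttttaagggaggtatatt
Cer1: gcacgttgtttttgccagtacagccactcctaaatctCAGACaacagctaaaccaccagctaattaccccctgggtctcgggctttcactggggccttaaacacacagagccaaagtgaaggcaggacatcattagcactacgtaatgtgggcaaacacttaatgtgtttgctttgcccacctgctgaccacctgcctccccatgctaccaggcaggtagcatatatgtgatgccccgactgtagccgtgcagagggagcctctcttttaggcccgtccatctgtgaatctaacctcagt
The Tdgf1 window held 2 matches to the FOXH1-type motif with 1 SMAD box between them, the Cer1 window held 1 SMAD box, and the Nodal window held neither. Of 32851 promoter windows in the table, 12.2% held the FOXH1-type motif, 1.43% held it at least 2 times and 49.6% held a SMAD box. These are letter matches and not measured binding sites.

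Each array detected 18506 to 19799 probes at a detection p under 0.05. The median raw signal was 73.8 to 83.7. Correlations of log2 values across the genes tested, which are not independent replicates, were 0.977 to 0.990 within a genotype. Between genotypes they were 0.966 to 0.985, an overlapping range. The signal of the Kdm1a probe was lower in Δ3/Δ3 cells, at 10.56, 10.20 and 10.41, against 12.06, 11.76 and 12.01 in Lox/Δ3 cells (normalized log2 signal, limma Benjamini-Hochberg adjusted p = 0.0128). Whether this probe lies in exon 3 was not examined.

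Of the 9 genes, the inhibitors Lefty1 and Lefty2 showed the widest differences between the genotypes. Lefty2 was 3.22-fold and Lefty1 2.24-fold higher in Δ3/Δ3 cells, while the ligands, receptors and Smad2 differed by at most 1.24-fold. None (0) of the 7 genes tested passed limma's adjusted threshold of 0.05, where 140 of 10711 genes, or 1.31%, did (1.03% higher and 0.28% lower in Δ3/Δ3 cells). Of their 8 probes kept, none (0) passed, where 1.15% of kept probes did. At an unadjusted p under 0.05 there were 2, Lefty1 and Lefty2, where 18.2% of all genes were at that level. In none (0) of the 7 did the arrays of the genotypes separate without overlap, as they did for 23.8% of all genes. The median log2 difference of the 7 genes was 0.23, against -0.025 over all genes tested. All 7 were detected on all 6 arrays, so none entered the test through one genotype alone, and Cer1 and Smad7 did not enter it. In bulk RNA, fewer cells that express a gene and less RNA per cell cannot be told apart.

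**Figure D1:**
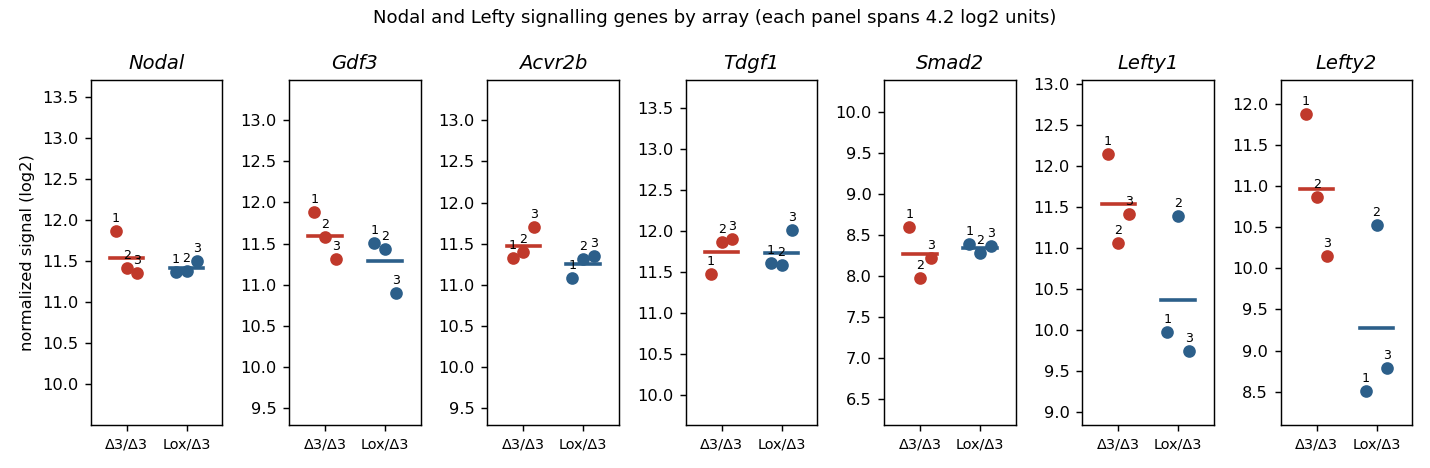
Normalized log2 signal of the 7 detected Nodal and Lefty signalling genes, 1 point per array with its array number, Δ3/Δ3 in red and Lox/Δ3 in blue, with horizontal bars at the mean of 3 arrays. Lefty1 and Lefty2 spread over a wider range than the other genes, and Lox/Δ3 array 2 lies among the Δ3/Δ3 arrays for both.

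The Nodal ligand gene had log2 signals of 11.86, 11.41 and 11.35 in Δ3/Δ3 cells, against 11.37, 11.38 and 11.50 in Lox/Δ3 cells. Only Δ3/Δ3 array 1 stood above the rest, and the genotypes overlapped. The log2 difference was 0.12 ± 0.16 (SE; 95% interval -0.25 to 0.50; limma adjusted p = 0.747), and its sign turned with median scaling and without Δ3/Δ3 array 1. The other Nodal probe read 10.19, 9.79 and 9.68 in Δ3/Δ3 cells and 9.85, 9.79 and 9.86 in Lox/Δ3 cells. It had the same array on top and a log2 difference of 0.053 ± 0.16 (SE; limma adjusted p over the 19652 kept probes = 0.907). Neither probe moved by more than the arrays of Δ3/Δ3 differed among themselves.

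Gdf3 encodes a TGF-β family ligand of early embryos and stem cells that can act through the same receptors as Nodal. Its log2 signals were 11.88, 11.58 and 11.32 in Δ3/Δ3 cells, against 11.51, 11.43 and 10.90 in Lox/Δ3 cells. The genotypes overlapped, with Lox/Δ3 array 3 lowest. The log2 difference was 0.31 ± 0.21 (SE; 95% interval -0.17 to 0.79; limma adjusted p = 0.493).

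Acvr2b, a type II activin receptor gene, read 11.32, 11.40 and 11.70 in Δ3/Δ3 cells, against 11.08, 11.32 and 11.35 in Lox/Δ3 cells. Its log2 difference was 0.23 ± 0.15 (SE; 95% interval -0.12 to 0.57; limma adjusted p = 0.487), with the lowest Δ3/Δ3 array inside the range of the controls. Tdgf1, the Nodal co-receptor gene, read 11.47, 11.86 and 11.90 in Δ3/Δ3 cells, against 11.61, 11.59 and 12.01 in Lox/Δ3 cells. The means of the genotypes were nearly equal, with a log2 difference of 0.010 ± 0.18 (SE; 95% interval -0.39 to 0.41; limma adjusted p = 0.985) whose sign turned under 6 of 16 alternative settings. Smad2, which encodes the receptor-activated effector, read 8.60, 7.98 and 8.21 in Δ3/Δ3 cells, against 8.39, 8.28 and 8.36 in Lox/Δ3 cells. The Δ3/Δ3 arrays lay on both sides of the controls, and the log2 difference was -0.080 ± 0.17 (SE; 95% interval -0.48 to 0.32; limma adjusted p = 0.859), with its sign turned without Δ3/Δ3 array 2. The intervals of these 5 genes leave room for changes of up to 0.79 on the log2 scale.

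Lefty1 read 12.15, 11.06 and 11.41 in Δ3/Δ3 cells, against 9.98, 11.39 and 9.75 in Lox/Δ3 cells, from raw signals of 4851, 1888 and 2577 in Δ3/Δ3 cells and 1296, 2636 and 907 in Lox/Δ3 cells. Lox/Δ3 array 2 stood within the Δ3/Δ3 range and the other Lox/Δ3 arrays lay below all Δ3/Δ3 arrays. The means were 11.54 ± 0.55 for Δ3/Δ3 and 10.37 ± 0.88 for Lox/Δ3 (SD, n = 3 each). The log2 difference was 1.17 ± 0.44 (SE; 95% interval 0.15 to 2.18; limma adjusted p = 0.214).

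Lefty2, the closely related inhibitor gene from the same part of chromosome 1, read 11.88, 10.86 and 10.15 in Δ3/Δ3 cells, against 8.51, 10.53 and 8.79 in Lox/Δ3 cells. Its raw signals were 4030, 1650 and 1133 in Δ3/Δ3 cells and 483, 1464 and 484 in Lox/Δ3 cells. As for Lefty1, Lox/Δ3 array 2 was the 1 control array that reached the Δ3/Δ3 range. The means were 10.96 ± 0.87 for Δ3/Δ3 and 9.28 ± 1.10 for Lox/Δ3 (SD, n = 3 each). The log2 difference was 1.69 ± 0.58 (SE; 95% interval 0.35 to 3.03; limma adjusted p = 0.181). A two-sided exact permutation test over the arrays gave p = 0.2 for each of Lefty1 and Lefty2, where 3 arrays against 3 allow no p below 0.1. Whether the Lefty1 and Lefty2 probes also bind the transcript of the other gene was not tested.

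Both differences held their direction under all 16 alternative settings, and in none did either pass limma's adjusted threshold. Without Lox/Δ3 array 2 the log2 differences were 1.67 for Lefty1 and 2.31 for Lefty2 (limma adjusted p = 0.0618 and 0.0673). With array weights, which gave Lox/Δ3 array 2 a weight of 4.37 and the others 0.487 to 1.01, they were 0.45 for Lefty1 and 0.76 for Lefty2. The unadjusted level was missed by both genes without Δ3/Δ3 array 1, Lox/Δ3 array 1 or Lox/Δ3 array 3, by both with array weights, and by Lefty1 alone without Δ3/Δ3 array 3 and with no filter on dim probes.

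**Figure D2:**
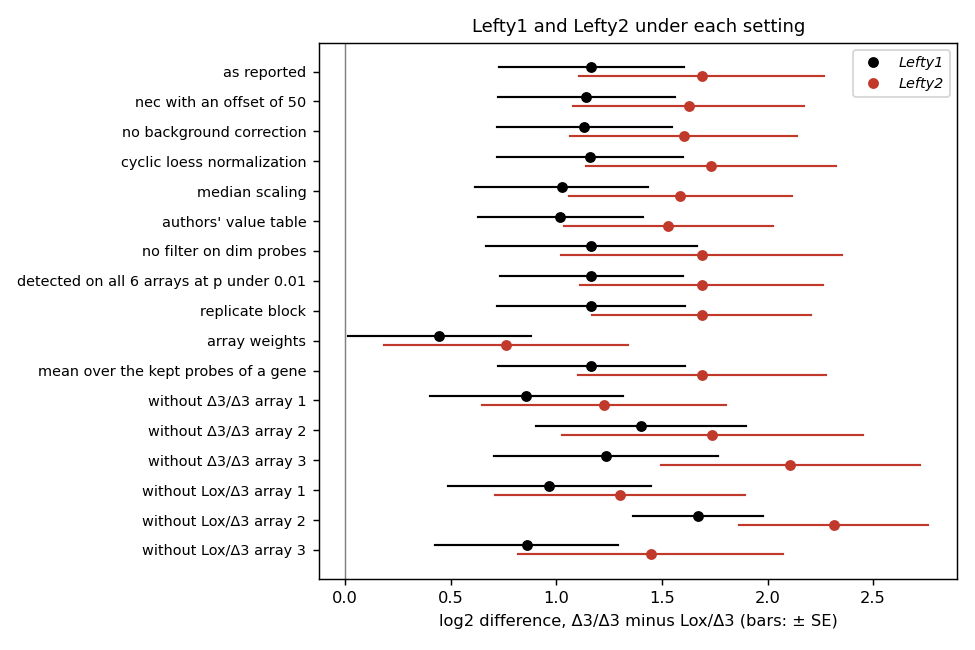
Log2 difference, Δ3/Δ3 minus Lox/Δ3, of Lefty1 (black) and Lefty2 (red) in the reported fit and under each of 16 alternative settings, with bars of ± SE. All points lie above 0, from 0.45 to 1.67 for Lefty1 and from 0.76 to 2.31 for Lefty2.

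Both Lefty genes varied widely between arrays of 1 genotype. The SD of Lefty2 was 0.87 over the Δ3/Δ3 arrays and 1.10 over the Lox/Δ3 arrays, larger than that of 99.8% and 99.6% of the genes tested, where the median SD was 0.18 in both genotypes. The SD of Lefty1 was larger than that of 97.8% of genes in Δ3/Δ3 cells and of 99.0% in Lox/Δ3 cells. The other 5 genes spread less than the Lefty genes, with SDs of 0.20 to 0.32 in Δ3/Δ3 cells and 0.057 to 0.33 in Lox/Δ3 cells. Nodal and Smad2 had SDs larger than those of 76.7% and 82.3% of genes in Δ3/Δ3 cells, against 13.4% and 8.61% in Lox/Δ3 cells. Gdf3 was above 77.1% of genes in Δ3/Δ3 cells and 82.1% in Lox/Δ3 cells.

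Over the 6 arrays, which include both genotypes, the 2 genes moved together, with a Pearson r of 0.942 (exact permutation p = 0.0167) and a Spearman rho of 0.714 (exact permutation p = 0.136), the only relation between genes tested this way. It rested largely on Lox/Δ3 arrays 1 and 3, the lowest for both genes. Over the 4 arrays left without them r was 0.740. The permutation treated all 6 arrays as exchangeable, so its p-values do not separate the genotype difference shared by both genes from variation between arrays. Among 10710 genes, 41 had a higher correlation with Lefty1 than Lefty2 had. The 3 genes most like Lefty1 by Pearson r were Schip1 (0.996), Rps6kl1 (0.992) and Shroom2 (0.991), and those most like Lefty2 were Kctd15 (0.991), Map1b (0.990) and Irf1 (0.987). Those most like Nodal were Ppif (0.985), Trim27 (0.977) and Pdrg1 (0.970). None of the genes named here for their likeness passed limma's adjusted threshold (adjusted p from 0.185 to 0.840), and correlations of this size are given as a description only, over 6 arrays.

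The standing of Lox/Δ3 array 2 was then described for every gene as its log2 signal minus that of the higher of the other Lox/Δ3 arrays, a measure chosen after the values had been seen. Lefty2 had the largest such gap of all 10711 genes, 1.75, and Lefty1 the second largest, 1.40. Only 7 genes had a gap over 1. Nodal, at -0.12, Gdf3, at -0.077, Acvr2b, at -0.032, Smad2, at -0.11, and Tdgf1, at -0.42, showed no such standing. The order put Lefty2 first under each of the 7 background, scaling and filter settings, and Lefty1 second under 6 of them and at rank 3 with median scaling.

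**Figure D3:**
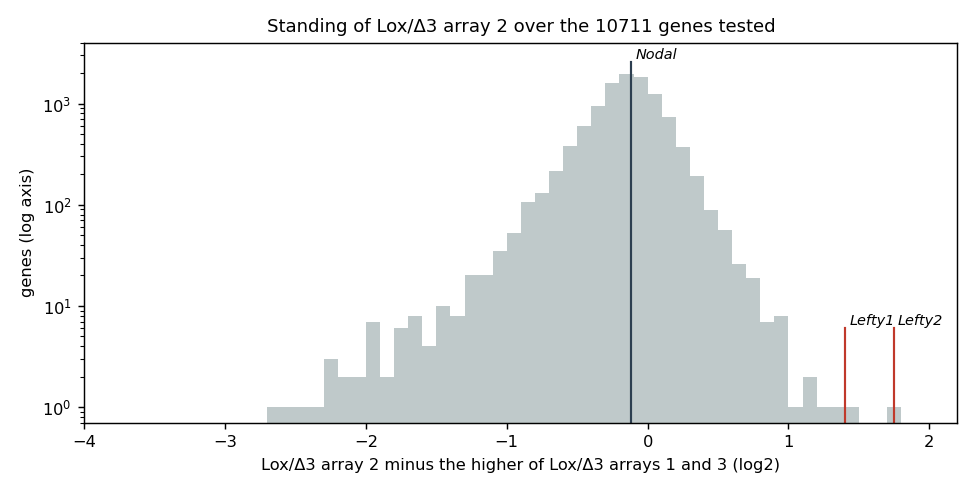
Histogram over the 10711 genes tested of the log2 signal on Lox/Δ3 array 2 minus the higher of Lox/Δ3 arrays 1 and 3, with the number of genes on a log axis and vertical lines at named genes (line heights carry no value). Lefty2 at 1.75 and Lefty1 at 1.40 lie at the far right, while Nodal at -0.12 lies in the bulk.

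Lefty2 and Lefty1 lie close to each other on chromosome 1 in the RefSeq gene order. Of 8 nearby genes with a probe, 6 were tested, with log2 differences from -0.26 to 0.75 and none past the adjusted threshold (lowest limma adjusted p = 0.194). Tmem63a, the next gene beyond Lefty1, which encodes a mechanosensitive ion channel, had the largest, 0.75 ± 0.27 (SE), and a gap of 0.68 on Lox/Δ3 array 2. These neighbours were singled out after their values had been seen. Ephx1, an epoxide hydrolase gene beyond it, was at 0.63 ± 0.31 (SE) with a gap of -0.78, in the other direction. Nvl, a ribosome biogenesis gene further along, was at 0.031, and Sde2 on the Lefty2 side at -0.26. Mixl1, a streak gene among these neighbours, was detected on no array.

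Of the inhibitor genes that remained, Cer1 and Smad7 were near background. Cer1 encodes a secreted antagonist of Nodal, BMP and Wnt made by the anterior endoderm of the embryo. Its first probe was detected on no array, with raw signals of 64.9, 53.1 and 57.1 in Δ3/Δ3 cells and 70.9, 60.8 and 58.4 in Lox/Δ3 cells. The other was detected on Δ3/Δ3 array 2 alone, with raw signals of 83.2, 90.2 and 79.5 in Δ3/Δ3 cells and 84.7, 75.8 and 70.5 in Lox/Δ3 cells. Smad7, a feedback inhibitor that acts on TGF-β family receptors, had raw signals of 51.1, 51.0 and 53.5 in Δ3/Δ3 cells and 59.1, 53.5 and 52.5 in Lox/Δ3 cells, with detection p-values from 0.693 to 0.946. Its signal was not well above background on any array, so no fold is given for it or for Cer1.

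The rest of the pathway was described from 4 lists of 51 genes in all, of which 45 had a probe and 32 were tested. None (0) passed limma's adjusted threshold, where 1.31% of all genes did, a share at which few calls or none would fall among 32 genes. At an unadjusted p under 0.05, 6 were higher in Δ3/Δ3 cells and 1 was lower, where 9.70% and 8.47% of all genes were higher and lower at that level. Evx1 and Gsc, among the 6, passed the detection filter through the Δ3/Δ3 arrays, so the count of 6 is not separate support. The median log2 difference of the 32 was 0.019.

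Among 8 tested receptor and effector components the median log2 difference was -0.084. Gdf1, a ligand that forms heterodimers with Nodal, had the smallest p. It read 7.69, 7.78 and 7.63 in Δ3/Δ3 cells, against 7.98, 8.16 and 7.99 in Lox/Δ3 cells, with a log2 difference of -0.34 ± 0.12 (SE; limma adjusted p = 0.194). Its genotypes did not overlap, as was so, in this direction, for 12.5% of all genes. The proprotein convertase gene Pcsk6 was at 0.27 and Smad3 at -0.21 (limma adjusted p = 0.456 and 0.608). Acvr1c and Cfc1 were detected on no array.

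Among 11 tested inhibitors and feedback regulators the median was 0.016. Fst, which encodes the activin-binding protein follistatin, read 6.89, 7.02 and 6.32 in Δ3/Δ3 cells, against 6.06, 6.35 and 5.98 in Lox/Δ3 cells. The genotypes overlapped at Δ3/Δ3 array 3 and Lox/Δ3 array 2, and the log2 difference was 0.61 ± 0.20 (SE; limma adjusted p = 0.172). Skil, a SMAD corepressor gene induced by the pathway, was at 0.19, and the phosphatase gene Ppm1a at 0.16 (limma adjusted p = 0.549 and 0.560). In the list of 6 other activin and TGF-β ligands and receptors the median was 0.16, with the accessory receptor gene Eng at 0.49 ± 0.19 (SE), Tgfbr1 at 0.20 and Tgfbr2 at -0.18 (limma adjusted p = 0.216, 0.547 and 0.609).

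Of 14 genes listed as streak and endoderm targets of Nodal, 7 were tested, with a median log2 difference of 0.60. The list also holds Fgf5, a gene of the epiblast, and whether the listed genes respond to Nodal in these cells was not tested. For Evx1, Gsc and Fgf5 the filter was passed through the Δ3/Δ3 arrays, since each was detected on all 3 of these and on 1 Lox/Δ3 array, so the median and their signs are not separate support. Eomes, a T-box factor of the streak, read 6.40, 6.22 and 6.33 in Δ3/Δ3 cells, against 5.82, 5.75 and 6.05 in Lox/Δ3 cells, a log2 difference of 0.44 ± 0.13 (SE; limma adjusted p = 0.136). Otx2, a homeobox factor of the epiblast and anterior endoderm, read 11.60, 10.95 and 11.11 in Δ3/Δ3 cells, against 10.28, 10.78 and 10.76 in Lox/Δ3 cells, a log2 difference of 0.61 ± 0.21 (SE; limma adjusted p = 0.184). Neither gene overlapped between genotypes, as was so in this direction for 11.3% of all genes, and both were detected on all 6 arrays.

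Evx1, a homeobox gene of the posterior streak, read 7.06, 6.14 and 6.14 in Δ3/Δ3 cells, against 5.33, 6.08 and 5.05 in Lox/Δ3 cells (log2 difference 0.96 ± 0.33 SE; limma adjusted p = 0.178). Gsc, a homeobox gene of the organizer, read 5.92, 6.54 and 6.43 in Δ3/Δ3 cells and 5.44, 6.24 and 5.40 in Lox/Δ3 cells. Fgf5, a growth factor gene of the post-implantation epiblast, read 7.67, 6.24 and 5.44 in Δ3/Δ3 cells and 5.07, 5.99 and 5.03 in Lox/Δ3 cells. In all 3 genes Lox/Δ3 array 2 was the highest control and the one on which they were detected, with the other controls near background, so the size of their gap has no firm base. The 4 targets detected on all 6 arrays did not show the standing of Lox/Δ3 array 2 seen for the Lefty genes. Its gap was 0.022 for Otx2, -0.0074 for Hhex, -0.30 for Eomes, in which it was the lowest control, and -1.99 for Sox17, which was highest on Lox/Δ3 array 3, at 8.22. The log2 difference between genotypes was -0.095 for Hhex and -0.036 for Sox17. At an unadjusted p under 0.05 there were 4 of the 7 targets, where 18.2% of all genes were at that level, and Evx1 and Gsc, which passed the filter through the Δ3/Δ3 arrays, are among the 4. The count was 2 without Δ3/Δ3 array 1 (14.5% of all genes) and without Lox/Δ3 array 1 (12.6%), 3 without Δ3/Δ3 array 2 (16.8%) and without Lox/Δ3 array 3 (20.5%), 4 without Δ3/Δ3 array 3 (15%) and 5 without Lox/Δ3 array 2 (15.1%).

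**Figure D4:**
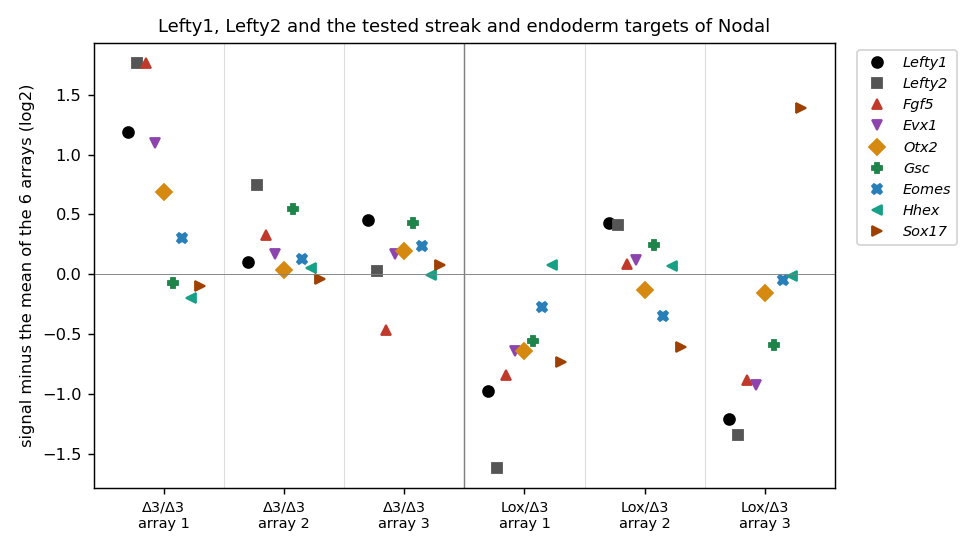
Log2 signal of Lefty1, Lefty2 and the 7 tested streak and endoderm targets of Nodal on each array, as the difference from that gene's mean over the 6 arrays, with Δ3/Δ3 arrays left of the vertical line. Lox/Δ3 array 2 stands above the other Lox/Δ3 arrays for Lefty1, Lefty2, Fgf5, Evx1 and Gsc. For Otx2 it is nearly level with Lox/Δ3 array 3, at a gap of 0.022. It does not stand above the others for Hhex, Eomes and Sox17, and Lox/Δ3 array 3 stands apart for Sox17.

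**Figure D5:**
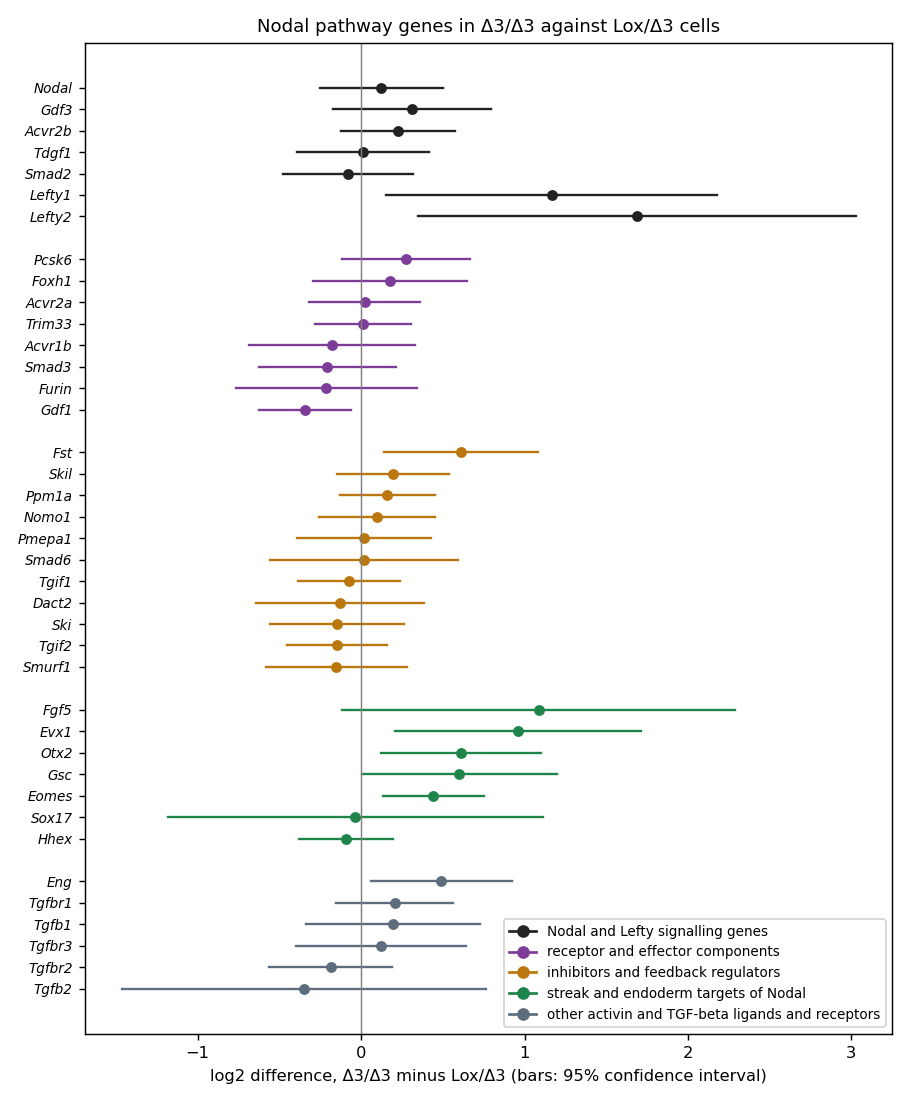
Log2 difference, Δ3/Δ3 minus Lox/Δ3, of the 7 tested Nodal and Lefty signalling genes and the 32 tested genes of 4 pathway lists, as points with unadjusted 95% confidence intervals. Lefty2 at 1.69 and Lefty1 at 1.17 have the highest values, and their intervals are among the widest.

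Markers of the cell types that the cultures could hold were set beside these values. Of 8 embryonic stem cell markers 7 were tested and all were detected on all 6 arrays. Their summed linear level was 50490.1 to 53860.4 in Δ3/Δ3 cells and 54299 to 55417 in Lox/Δ3 cells, lower in Δ3/Δ3 cells without overlap. Gene by gene, none (0) of the 7 separated without overlap, where 23.8% of all genes did. None (0) had an unadjusted p under 0.05, where 18.2% of all genes had. So few genes leave both counts with little weight. Of the 7, 3 were higher and 4 lower in Δ3/Δ3 cells, with a median log2 difference of -0.024, against -0.025 over all genes tested. Of 10 primitive and visceral endoderm markers 8 were tested, and Afp and Ttr were detected on no array. Their summed level was 3707 to 5403 in Δ3/Δ3 cells and 3550.27 to 14539.6 in Lox/Δ3 cells, the highest being Lox/Δ3 array 3. Without that array the log2 differences of Lefty1 and Lefty2 were 0.86 and 1.45. Of the 8 endoderm markers tested, 2 were higher and 6 lower in Δ3/Δ3 cells, with a median log2 difference of -0.41. None (0) passed the adjusted threshold. Sox7, at -1.09, was the 1 with an unadjusted p under 0.05, where 18.2% of all genes were at that level. Of 8 fibroblast markers 3 were tested, with a summed level of 2635 to 3618 in Δ3/Δ3 cells and 1355 to 1828 in Lox/Δ3 cells, without overlap. Thy1 and Mmp2 were higher and Col1a1 lower in Δ3/Δ3 cells, none of them past the adjusted threshold, and the defining markers Col1a2, Col3a1, Postn, Lum and Dcn were detected on no array. The part of these markers in the Lefty values was not tested.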

How the data were processed

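Per the labels, total RNA was turned into biotinylated cRNA and hybridised to Illumina bead arrays. The authors deposited 1 linear intensity per probe and array, not normalized, with a detection p-value beside it. Each deposited p-value column was ordered by its own array's signal (0 breaks). The authors' value table holds the same intensities times 1 constant per array, which sets each median to 1000. The scanner's software and settings are not stated by the labels.

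Symbols came from the platform annotation, updated through a RefSeq table of assembly GRCm38.p6 (34862 of 34885 single-symbol probes matched). The background was corrected by the nec function of limma (offset 16, which pulls weak fold changes toward 1), followed by quantile normalization and log2. A probe was kept where its detection p was below 0.05 on 3 or more of the 6 arrays (19652 probes), with 1 probe per gene, that of the highest mean (10711 genes). Genotypes were compared with limma 3.58.1 in R 4.3.3 (lmFit, eBayes, genotype only, two-sided), with Benjamini-Hochberg adjustment over all genes and a threshold of 0.05. The fit was tested on simulated data. Figures used Python 3.11.15 and matplotlib 3.10.9.

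The genes and lists were chosen with earlier results of these data known. Named were all 9 genes and their probes, Kdm1a, the 3 genes with the smallest p of each pathway list, and the 3 genes most correlated with Nodal, Lefty1 and Lefty2; others are said to be chosen later, as are the remaining tested streak and endoderm targets. The number of arrays limits the precision.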

Additional observations from a re-analysis of the deposited data

How the results depend on the processing

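None (0) of the 9 genes and their probes passed limma's adjusted threshold under any of the alternatives run, and Gdf3, Acvr2b, Lefty1 and Lefty2 kept their sign in all of them. Over all genes, where 140 were called, the count was 261 with median scaling, 24 with no filter on dim probes, 60 with detection on all 6 arrays at p under 0.01, 512 with array weights and 0 to 282 without 1 array (0 without any Δ3/Δ3 array, where 1549 to 1804 genes had an unadjusted p under 0.05). With the replicate number as a block it was 373. Deviations from the genotype mean correlated at 0.36, 0.067 and 0.40 between same-numbered arrays. Δ3/Δ3 arrays 1 and 3 correlated best with the Lox/Δ3 array of the same number. Δ3/Δ3 array 2 correlated best with Lox/Δ3 array 3, at 0.13. Whether same-numbered arrays were handled together was not tested. The block gave adjusted p-values of 0.192 for Lefty1, 0.127 for Lefty2 and 0.199 for Gdf3, with all 3 at an unadjusted p under 0.05. With array weights 1 other pathway gene, Eomes, was called (log2 difference 0.53, limma adjusted p = 0.0422). Median scaling moved the median of all genes to -0.10, and under it Nodal was at -0.00082 and Tdgf1 at -0.11. Tdgf1 was at -0.090 with the authors' values. Without 1 array Nodal ranged from -0.037 to 0.22, Tdgf1 from -0.069 to 0.15, Smad2 from -0.25 to 0.064, Gdf3 from 0.12 (without Lox/Δ3 array 3) to 0.45, Acvr2b from 0.11 (without Δ3/Δ3 array 3) to 0.30, Lefty1 from 0.86 to 1.67 and Lefty2 from 1.23 to 2.31. The ranks by gap and the counts without 1 array at an unadjusted p were added after seeing the data. For these changes the cause was not tested.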

Other observations

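The 8 genes next to Lefty2 and Lefty1 in the order by the gap of Lox/Δ3 array 2, which make up its first 10, were named after their values had been seen and were compared with no list. Trh, the gene of thyrotropin-releasing hormone, had a gap of 1.37 and Nnat, the imprinted neuronatin gene, one of 1.28. The gaps of the noncoding RNA gene Miat and of Oasl2, an interferon-induced gene, were both 1.19. Tnnc2, a troponin gene, was at 1.08, the zinc finger gene Zic2 at 1.00, the guanylate-binding protein gene Gbp2 at 0.97 and the kinesin gene Kif1a at 0.95. Their log2 differences between Δ3/Δ3 and Lox/Δ3 cells ran from -0.15 for Nnat to 1.06 for Miat. Miat and Oasl2 were detected on 2 Lox/Δ3 arrays and Tnnc2 on 1, against 3 Δ3/Δ3 arrays for each. These genes passed the detection filter through the Δ3/Δ3 arrays, so their gaps and log2 differences have no firm base. Among the Δ3/Δ3 arrays, Trh, Oasl2, Tnnc2 and Zic2 fell from array 1 to array 3, the order of Lefty2. Nnat, Miat, Gbp2 and Kif1a were highest on Δ3/Δ3 array 2, which is not that order. Gbp2, for example, read 9.23, 10.40 and 8.08 in Δ3/Δ3 cells, against 8.56, 9.53 and 8.41 in Lox/Δ3 cells.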
